A study of Mus musculus with 4 samples.

Results

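Small noncoding RNA genes were examined in 4 RNA-seq libraries from the telencephalon of E13.5 mouse embryos. The series concerns TCF20, a nuclear protein, in the making of neurons. The group comprised every gene annotated as miRNA, snoRNA, scaRNA, snRNA or misc_RNA on chromosomes 1 to 19 with at least 40 counts summed over the 4 libraries. It held 37 of the 22084 genes in the files: 14 miRNA, 13 snoRNA, 2 scaRNA, 4 snRNA and 4 misc_RNA genes. The summed counts chose the members, so a high total is no finding, and the rule itself sets no library against another. The group was, however, chosen with earlier results of these data known.

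All embryos were of strain B6D2F2. KO26F and KO23M carry the genotype label TCF20-/-, and WT25F carries TCF20+/+. The labels of WT22M disagree: its title says wild type and its genotype field says TCF20+/-. Whichever label of WT22M is right, it holds a wild-type allele, so WT25F and WT22M are together called carriers. KO below means the library's label: Tcf20, counted over the gene, stood at 98.6 CPM (the count scaled to the total count of the library) in KO26F and 104 in KO23M, against 118 in WT25F and 111 in WT22M, and it was not called (log2 fold change -0.18 ± 0.10 SE, adjusted p = 1.0 by edgeR's quasi-likelihood test with Benjamini-Hochberg adjustment). With the deleted part of the gene not given in the sources used here, this total does not check the labels. The extraction protocol names the cerebral cortex where the titles name telencephalic tissue. Separate litters are named in no label, and p-values therefore measure only how these samples spread.

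These genes serve the handling of other RNAs. A miRNA is cut from a hairpin in a longer transcript and guides Argonaute to messenger RNAs that pair with its seed, the stretch from base 2 to base 8. Small nucleolar RNAs (snoRNAs) guide chemical changes on ribosomal RNA, the C/D box class methylation and the H/ACA box class pseudouridine formation, and most are released from introns of host genes. Small Cajal body RNAs (scaRNAs) do the same for spliceosomal RNAs, and small nuclear RNAs (snRNAs) form the core of the spliceosome. The misc_RNA class includes 7SK, which holds a transcription elongation factor inactive. Several of the miRNAs below, such as let-7 and miR-7, are known for their roles in developing neurons.

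The sequences that the results turn on are shown first. Gm23935, a miRNA-annotated gene at chr16:11144125-11144181 (plus strand), held most counts of the group. Gm24270, at chr9:56223715-56223771 (minus strand), has the identical 57 bases. Both are taken from the GENCODE vM21 transcripts of GRCm38, with 73.7% G and C.
Gm23935: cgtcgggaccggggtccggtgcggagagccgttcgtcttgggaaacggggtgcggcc
Gm24270: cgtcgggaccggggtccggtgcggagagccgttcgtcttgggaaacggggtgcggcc

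Gm22490, a snoRNA-annotated gene at chr5:21117083-21117201 (minus strand), had the largest fitted difference between the arms. It is shown with AF357399, a snoRNA gene at chr7:28351508-28351632 (plus strand) in an intron of Rps16, which encodes a ribosomal protein. Capitals mark the bases that are identical in their end-to-end alignment, 92 of 128 columns (71.9%).
Gm22490: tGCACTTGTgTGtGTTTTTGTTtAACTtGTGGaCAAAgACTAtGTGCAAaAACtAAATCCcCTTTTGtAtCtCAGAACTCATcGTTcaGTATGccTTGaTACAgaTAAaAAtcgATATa
AF357399: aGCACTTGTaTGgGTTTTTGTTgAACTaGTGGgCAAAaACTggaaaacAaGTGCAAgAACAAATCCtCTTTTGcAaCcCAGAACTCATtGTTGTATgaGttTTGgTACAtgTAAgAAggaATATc

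Of the 13 snoRNA members, 6 (46.2%) held TGATG in their first 20 bases and CTGA in their last 20 on the sense strand, the letters of the C and D boxes, which do not overlap in these windows. The share among all 1507 snoRNA genes of GENCODE vM21 was 23.6%. Snord91a, the snoRNA gene with the lowest fitted KO-to-carrier ratio, and Snord104, the snoRNA with most counts, are printed with both boxes in capitals. ACA, the letters of the H/ACA tail, stood in the last 8 bases of 4 of the 13 (30.8%, against 46.8% of all snoRNA genes) and of both scaRNA members.
Snord91a: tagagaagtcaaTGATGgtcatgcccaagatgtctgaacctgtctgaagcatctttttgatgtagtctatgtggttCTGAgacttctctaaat
Snord104: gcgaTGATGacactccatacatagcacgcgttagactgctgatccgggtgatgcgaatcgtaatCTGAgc

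Of the 14 miRNA members, 10 matched RefSeq (GRCm38.p6) by symbol, with identical hairpin positions, and gave 18 mature miRNAs with 16 distinct seeds. The mature forms of the miRNAs described most below follow, with the seed in capitals. let-7b-5p and let-7c-5p share the seed GAGGUAG.
let-7b-5p: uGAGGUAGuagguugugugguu
let-7c-5p: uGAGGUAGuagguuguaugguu
miR-135a-5p: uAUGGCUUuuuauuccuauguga
miR-7a-5p: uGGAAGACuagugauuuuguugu
miR-99a-5p: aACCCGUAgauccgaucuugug
miR-5125: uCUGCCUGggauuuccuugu

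The libraries were of even depth, from 17791641 to 18509743 counts, and the members took 0.0270% to 0.0402% of them. The 10 telencephalon markers were all detected in every library, and their summed level was 2249 to 2582 CPM. Other markers differed within the carriers: the summed level of 5 diencephalon markers, none of them at 0, was 85.6 CPM in WT25F and 28.7 to 33.0 CPM in the other libraries, that of 5 erythroid markers was 992 CPM in WT25F against 558 to 704, and that of 5 choroid plexus markers was 191 CPM in WT22M against 766 to 983. Most of the choroid plexus sum came from Ttr, at 921, 719, 867 and 179 CPM in KO26F, KO23M, WT25F and WT22M. In bulk tissue, fewer cells of a type and less RNA per cell cannot be told apart. The library kit named in the labels is a general RNA kit and not one made for small RNA. A count here is a read assigned to the gene's interval, so reads from the mature small RNA, from its longer precursor and from an overlapping host transcript cannot be told apart, with the strand setting of the counting not given in the sources used here.

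Most counts of the group belonged to 3 miRNA-annotated genes. Gm23935, Mir5125 and Gm24270 held 72.2%, 9.38% and 6.51% of the 25104 member counts, and the other 34 members together held 11.9%. Per kilobase of gene, the mean level over the 4 libraries was 4385 CPM for Gm23935, 412 for Mir5125 and 396 for Gm24270, then 46.9 for Snord104, with a median of 8.92 over the 37 members and a lowest value of 2.2 for Gm22204. Depth limited most of the group: 28 members had fewer than 100 counts over all libraries, and 36 had a count in every library. Another 263 genes of the same classes and chromosomes lay under the threshold, with a median of 7 counts. Just inside it were Mirlet7c-2 and Snord88c with 40 counts and Mir8094 with 44, and just outside were Gm22270 with 39, Gm27343 with 38 and Mir1291 with 36.

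**Figure D1:**
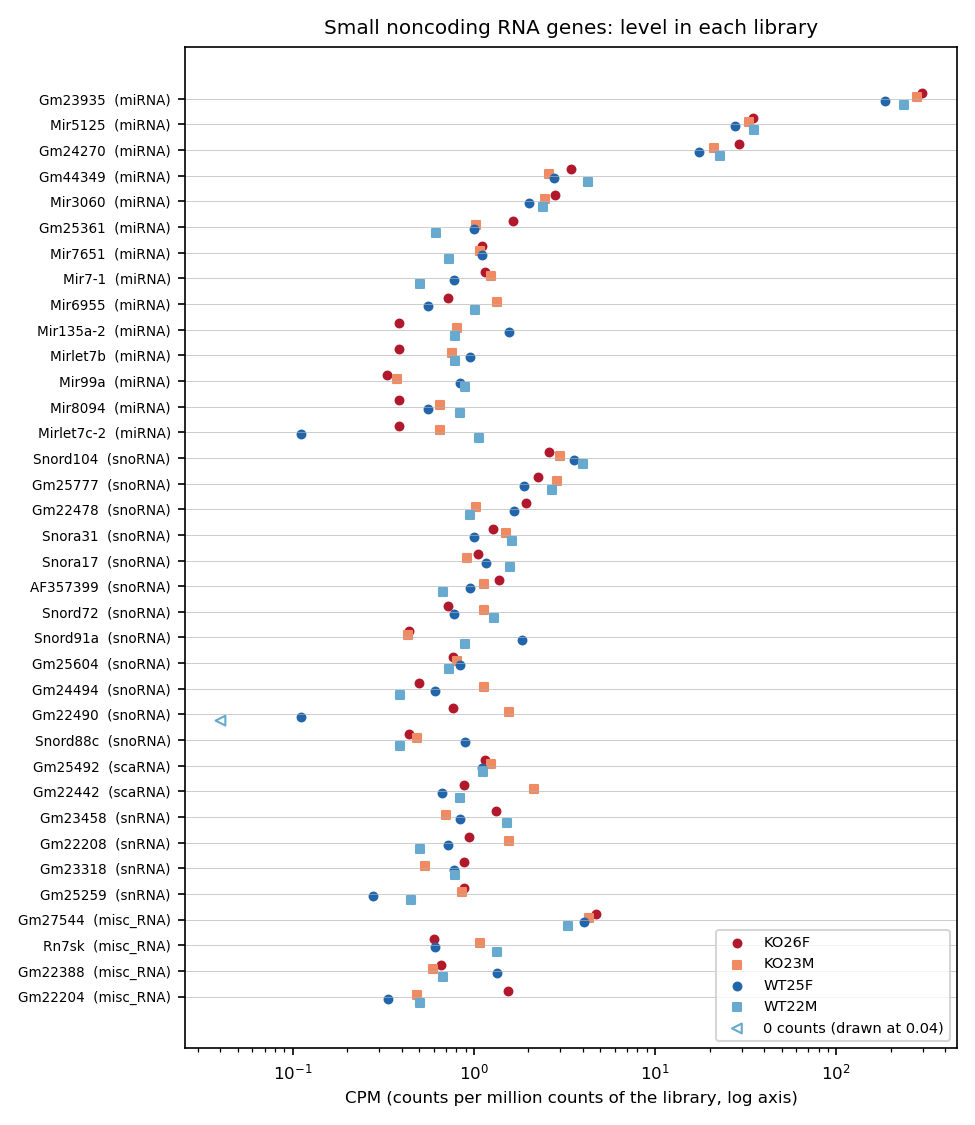
Level of 36 of the 37 small noncoding RNA genes (vertical axis, grouped by class) in each of the 4 libraries (points), in CPM on a log axis. Gm23935 stands between 185 and 297 CPM, Mir5125 and Gm24270 between 17.4 and 35.02, and the remaining genes below 5 CPM; the open triangle marks Gm22490 in WT22M, where no read was counted.

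Summed by class, the members were higher in both KO libraries than in both carriers for every class but the snoRNA genes. The gap was small for scaRNA (2.04 CPM in KO26F, 1.97 in WT22M) and misc_RNA (6.48 in KO23M, 6.35 in WT25F). No class total was tested. The ratio of the KO mean to the carrier mean changed without the member with most counts in its class. It went from 1.31 to 1.11 for miRNA, from 1.15 to 1.03 for misc_RNA and from 0.96 to 1.03 for snoRNA. The arms of these classes then overlapped. For snRNA it went from 1.31 to 1.61 and for scaRNA from 1.45 to 2.01. The miRNA members together were at 373 CPM in KO26F and 347 in KO23M, and at 243 in WT25F and 309 in WT22M. Both KO libraries were above both carriers, with means of 360 ± 18.3 and 276 ± 46.6 CPM (SD, n = 2 each). The summed level of the snRNA members was 3.85 ± 0.25 CPM in KO and 2.94 ± 0.45 CPM in carriers, that of the scaRNA members 2.72 ± 0.96 and 1.88 ± 0.13, and that of the misc_RNA members 7.02 ± 0.76 and 6.10 ± 0.36 (SD, n = 2 each). The snoRNA members together were at 15.1 and 16.6 CPM in KO26F and KO23M and at 16.3 and 16.6 in WT25F and WT22M, so the arms overlapped. This total includes Gm22490, which met the count threshold through the KO libraries. Gm22490 was at 0.772 and 1.57 CPM in KO26F and KO23M and at 0.111 and 0 in WT25F and WT22M. The overlap depends on Gm22490: with it left out, both KO libraries would lie below both carriers. Without Gm23935, Gm24270 and Mir5125, the remaining 34 members together were at 42.3 ± 1.27 CPM in KO and 40.5 ± 1.59 CPM in carriers (SD, n = 2 each), a ratio of 1.05, and the arms overlapped.

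Between KO and carriers no member passed the test. Of the 37 members 35 had enough counts to be tested; Snord88c and Gm22204 had not. edgeR's quasi-likelihood test over 16252 genes, with Benjamini-Hochberg adjustment, called 0 of the 35, where it called 10 genes (0.0615%) in all, and DESeq2 also called 0 members and 10 genes. At an unadjusted p under 0.05 there were 4 members of 35 (11.4%), Gm22490, Gm23935, Snord91a and Mir99a, against 464 genes (2.86%) of all tested. Gm22490 met the threshold of 40 counts through the KO libraries, where it is high, so the shares in this paragraph are descriptions; without it, a step chosen after values were seen, there were 3 of 34 (8.82%), with a median log2 fold change of 0.09. The median log2 fold change of the 35 was 0.10 and that of all genes 0.002; 20 of the 35 (57.1%) lay above 0, against 50.7% of all genes. Both KO libraries exceeded both carriers in 11 members (31.4% of 35; 10 of 34, or 29.4%, without Gm22490), where 13.6% of all genes did so, and both lay below in 7 (20%), where 13.4% did so. Some of these separations, in both directions, lay within counting error. The lowest KO and highest carrier counts were 19 and 18 for Gm25361 and 21 and 20 for Gm25492. For Gm22388, which was lower in KO, the highest KO and lowest carrier counts were 12 and 12. The identical Gm23935 and Gm24270 are 2 of the tested members and share sequence, so members are not independent of each other.

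**Figure D2:**
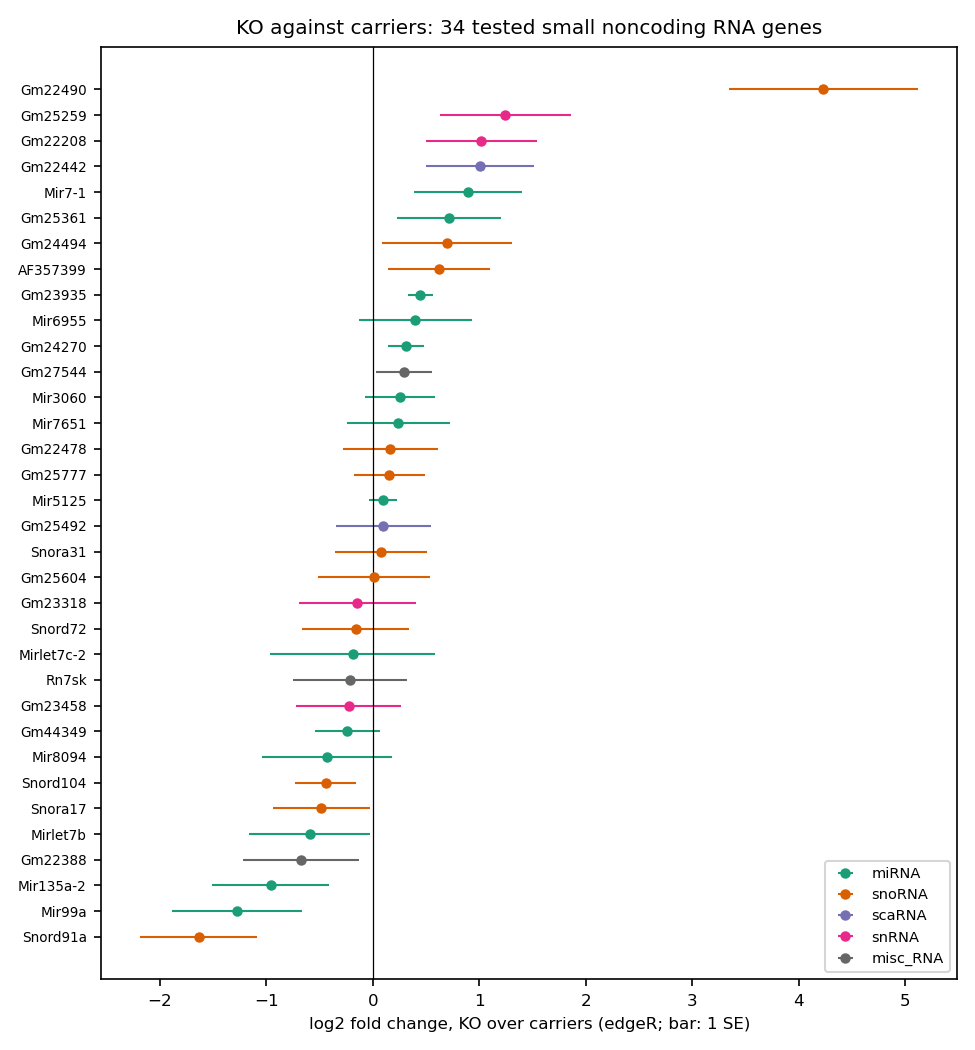
Fitted log2 fold change of KO over carriers for 34 of the 35 tested members (points, coloured by class; bars, 1 SE from edgeR), ordered from highest to lowest. The estimates run from 4.23 for Gm22490 to -1.63 for Snord91a, and the bars are shortest for the genes with most counts, Gm23935, Mir5125 and Gm24270.

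Gm23935 was counted 5383 times in KO26F and 5189 in KO23M, and 3328 times in WT25F and 4217 in WT22M. The arms did not overlap, KO being higher, and WT25F was the lowest library. Its level was 289 ± 11.8 CPM in KO and 211 ± 36.5 CPM in carriers (SD, n = 2 each), a log2 fold change of 0.44 ± 0.12 SE, with an adjusted p of 0.693 by edgeR's test. Against WT25F alone the change was larger, at a log2 fold change of 0.65 ± 0.16 SE, and passed the threshold with an adjusted p of 0.00979 by edgeR with 3 groups. At an unadjusted p under 0.05 there were 5 members (14.3%; 4 of 34, or 11.8%, without Gm22490), against 3.43% of all genes. That fit called 56 of 16252 genes (0.345%), of which Gm23935 was the only member; DESeq2 called 23 genes (0.142%), Gm23935 among them. This fit takes its spread from the KO pair only; with the spread of all 4 libraries the adjusted p was 0.318, and with no filter on low counts it was 1.0. Between KO and carriers, the fold change without WT25F was 0.26 on the log2 scale (adjusted p = 1.0, edgeR), so its size leaned on that library. It was 0.42 without KO26F (adjusted p = 0.133), 0.46 without KO23M (adjusted p = 0.0441) and 0.65 without WT22M (adjusted p = 0.0138), of which the latter pair passed the threshold. WT25F, the lowest library, also had the highest diencephalon and erythroid marker sums; their part in the difference was not tested.

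Its identical copy Gm24270 was counted 525, 391, 312 and 406 times in KO26F, KO23M, WT25F and WT22M. KO26F was the highest library, while KO23M lay below WT22M, so the arms overlapped. The log2 fold change was 0.31 ± 0.17 SE (adjusted p = 1.0, edgeR). Gm24270 made up 8.89% of the reads of the pair in KO26F, 8.57% in WT25F and 8.78% in WT22M, and 7.01% in KO23M (95% Clopper-Pearson interval 6.35% to 7.71%, counting error only). The share in KO23M was the lowest. With the handling of reads that match several places not given in the sources used here, how counts split between these copies is uncertain, and the pair is best read as a sum: 326, 301, 203 and 260 CPM in the same order. GENCODE vM21 holds a further identical copy, Gm24245, and near copies Gm24187, Gm25911 and Gm23388 with 56, 55 and 53 of 57 bases in common; of these Gm25911 was counted 1 to 5 times in each library. Gm23935 lies in an intron of Zc3h7a on the opposite strand, and Zc3h7a was at 38.3 to 46.6 CPM, far under Gm23935 in every library. Gm24270 lies in an intron of Peak1, a gene at 8.21 to 14.6 CPM.

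For comparison, neighbouring genes of chromosome 17, of which CT010467.1 is annotated as ribosomal RNA, are given beside the pair. Gm26917, a long noncoding RNA gene at chr17:39843013-39846341, was at 58.2, 47.4, 33.3 and 35.1 CPM in KO26F, KO23M, WT25F and WT22M. Its arms did not overlap, and it was higher in KO (log2 fold change 0.62 ± 0.12 SE, adjusted p = 0.0350, edgeR). CT010467.1, at chr17:39846353-39848827, was at 219, 228, 177 and 233 CPM, with overlapping arms and a log2 fold change of 0.12 ± 0.12 SE (adjusted p = 1.0, edgeR). Like Gm23935, both were lowest in WT25F, for Gm26917 by little. The log2 fold change of WT22M over WT25F was 0.11 ± 0.18 SE for Gm26917, 0.43 ± 0.17 SE for CT010467.1 and 0.39 ± 0.17 SE for Gm23935. These genes were chosen after values were seen, and the part of ribosomal RNA reads in the Gm23935 counts was not tested.

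**Figure D3:**
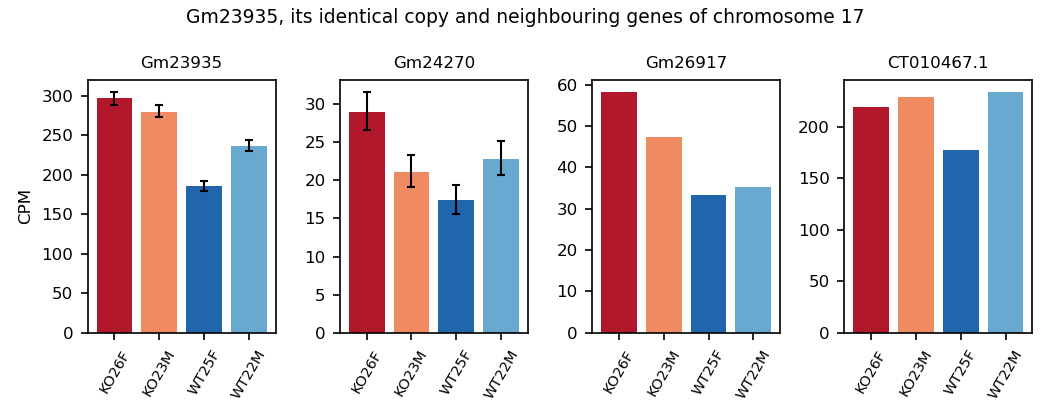
Level in CPM (vertical axes, each from 0) of Gm23935, its identical copy Gm24270, Gm26917 and CT010467.1 in each library (bars); the error bars on Gm23935 and Gm24270 are 95% Poisson intervals of the counts and cover counting error only. WT25F is the lowest bar in every panel, and both KO libraries exceed both carriers for Gm23935 and Gm26917 but not for Gm24270 or CT010467.1.

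Mir5125, in an intron of Srrm2, which encodes a protein of the splicing machinery, was counted 626, 609, 498 and 623 times in KO26F, KO23M, WT25F and WT22M. WT25F was low and the other libraries were alike, so the arms overlapped. The log2 fold change was 0.10 ± 0.13 SE (adjusted p = 1.0, edgeR), and Srrm2 itself had a log2 fold change of 0.002 ± 0.10 SE. Mir5125 held 3.20% to 3.73% as many counts as Srrm2 in the 4 libraries.

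The remaining miRNA genes were low. Gm44349 (62, 48, 50 and 76 counts in KO26F, KO23M, WT25F and WT22M) overlaps an exon of Elp5 on the opposite strand, and its arms overlapped. Mir3060, in an intron of Rnf215, was counted 51, 46, 36 and 43 times, with both KO libraries slightly above both carriers and a log2 fold change of 0.25 ± 0.33 SE. Both differences were smaller than their standard errors. Gm25361 (30, 19, 18 and 11 counts) and Mir7-1 (21, 23, 14 and 9 counts), an miR-7 hairpin in an intron of Hnrnpk, were also higher in both KO libraries than in both carriers. Mir7-1 had a log2 fold change of 0.89 ± 0.51 SE (adjusted p = 1.0, edgeR), and Hnrnpk, an abundant RNA-binding protein gene, one of 0.02 ± 0.10 SE. Mir7651 (20, 20, 20 and 13 counts), Mir6955 (13, 25, 10 and 18 counts) and Mir8094 (7, 12, 10 and 15 counts) had overlapping arms.

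The let-7 family, which rises as neural precursors mature, was represented by a pair of genes 622 bases apart in exons of the noncoding gene Lncppara. Mirlet7b was counted 7, 14, 17 and 14 times in KO26F, KO23M, WT25F and WT22M, and scaled to depth both KO libraries were below both carriers, KO23M by little. Its log2 fold change was -0.59 ± 0.57 SE (adjusted p = 1.0, edgeR). Mirlet7c-2 was counted 7, 12, 2 and 19 times, the widest relative range of the 36 members with a count in every library (9.58-fold from WT25F to WT22M). The carriers lay on both sides of the KO libraries, and the KO-to-carrier log2 fold change was -0.19 ± 0.77 SE. WT22M exceeded WT25F by a log2 fold change of 3.21 at an unadjusted p of 0.00662, which compares these libraries and not genotypes, and the adjusted p was 0.416 by edgeR.

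Mir99a, which lies in an intron of the noncoding gene Mir99ahg, was counted 6 and 7 times in KO26F and KO23M and 15 and 16 times in WT25F and WT22M. The arms did not overlap, with KO lower. The log2 fold change was -1.28 ± 0.61 SE, with an adjusted p of 1.0 by edgeR. The host was at 4.08 and 6.70 CPM in KO and at 7.47 and 9.22 CPM in carriers, and also stood lower in both KO libraries (log2 fold change -0.63 ± 0.24 SE, adjusted p = 1.0, edgeR). Neither difference passed the test.

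Mir135a-2 and the misc_RNA gene Gm27544 lie 271 bases apart in Rmst, a long noncoding RNA gene of neural tissue, Mir135a-2 in an intron and Gm27544 across an exon. Mir135a-2 was counted 7, 15, 28 and 14 times in KO26F, KO23M, WT25F and WT22M. WT25F was highest, KO26F lowest, and the arms overlapped (log2 fold change -0.96 ± 0.55 SE, adjusted p = 1.0, edgeR). Rmst was at 5.41, 8.21, 10.9 and 3.15 CPM, also highest in WT25F and lowest in WT22M. The diencephalon marker sum was highest in the same library, and its part in the Mir135a-2 counts was not tested. Gm27544 was counted 86, 80, 73 and 59 times, with both KO libraries above both carriers and WT22M lowest (log2 fold change 0.29 ± 0.26 SE).

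Among the snoRNA genes, Gm22490 differed most in fitted size. It was counted 14 times in KO26F and 29 times in KO23M, 2 times in WT25F and not at all in WT22M. Both KO libraries were above both carriers, and its place in the group came from the KO libraries, which gave 43 of its 45 counts. Its KO-to-carrier values are therefore a description of a member chosen through the arm in which it is high. The KO-to-carrier ratio of levels was 21.0, with a 95% counting interval of 5.46 to 179. In WT22M the 3 counts that a count of 0 allows correspond to 0.169 CPM, and the upper bound of the 95% Poisson interval is 0.207 CPM, against 0.772 CPM in KO26F and 1.57 in KO23M. The fitted log2 fold change of 4.23 ± 0.89 SE depends on the small count the fit adds, and its adjusted p was 0.102 by edgeR (unadjusted p = 8.28e-05). It did not pass the threshold with all 4 libraries, and DESeq2 gave an adjusted p of 1.0. Which library was left out decided the call: in edgeR the adjusted p was 0.00772 without KO26F and 0.00753 without WT25F, and 0.544 without KO23M and 0.213 without WT22M. The fitted value then ran from 3.33 without WT22M to 7.41 without WT25F, where the lone carrier is at 0 and the fit gives no bound. The authors' deposited table marked it in both KO libraries against WT25F, with a deposited log2 fold change of 2.79 (adjusted p = 0.0142) for KO26F and 3.81 (adjusted p = 3.9e-06) for KO23M.

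Gm22490 lies outside annotated genes, between Ptpn12, 61172 bases below it, and Gsap, 69054 bases above it. The pseudogene Rpl31-ps21, 1948 bases away, was counted 0 to 4 times in each library. Ptpn12 had a log2 fold change of 0.06 ± 0.12 SE. Gsap was at 18.6 and 16.5 CPM in KO26F and KO23M and at 13.49 and 10.51 CPM in WT25F and WT22M, with both KO libraries above both carriers, but did not pass the test (log2 fold change 0.55 ± 0.17 SE, adjusted p = 0.960, edgeR). AI506816, a noncoding gene, lies 2581095 bases from Gm22490 on the same chromosome. It was at 0.552 and 0.216 CPM in KO26F and KO23M, and at 55.9 and 62.5 CPM in WT25F and WT22M. The log2 fold change was -7.25 ± 0.23 SE (adjusted p = 3.5e-16, edgeR). Inherited alleles other than those of Tcf20 were not examined, so their part in the differences at these genes was not tested. AF357399, which shares much of the Gm22490 sequence printed above, was counted 25, 21, 17 and 12 times in KO26F, KO23M, WT25F and WT22M, higher in both KO libraries than in both carriers, with a log2 fold change of 0.62 ± 0.48 SE (adjusted p = 1.0, edgeR). Rps16, its host, had one of -0.04 ± 0.12 SE.

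Snord91a stood at the other end. It was counted 8 times in each KO library, 33 times in WT25F and 16 times in WT22M. KO stood below both carriers, and WT25F was the highest. The log2 fold change was -1.63 ± 0.55 SE, with an adjusted p of 1.0 by edgeR (unadjusted p = 0.0068). Its host Tsr1, a gene of small ribosomal subunit maturation, was at 18.1, 12.3, 18.6 and 13.1 CPM in KO26F, KO23M, WT25F and WT22M, with overlapping arms and a log2 fold change of -0.06 ± 0.19 SE. The authors' deposited table marked Snord91a as lower than in WT25F in all 3 other libraries, with deposited log2 fold changes of -2.06 in KO26F, -2.09 in KO23M and -1.03 in WT22M. These 3 values share WT25F, the library with most Snord91a counts.

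Snord104, the C/D box snoRNA with most counts, was counted 47, 55, 64 and 71 times in KO26F, KO23M, WT25F and WT22M. Both KO libraries were below both carriers, with levels of 2.78 ± 0.27 and 3.78 ± 0.30 CPM (SD, n = 2 each) and a log2 fold change of -0.44 ± 0.29 SE (adjusted p = 1.0, edgeR). RefSeq places it in the noncoding gene Gm36220. The H/ACA box gene Snora17 (19, 17, 21 and 28 counts), which RefSeq places in the snoRNA host Snhg7, was also lower in both KO libraries. Neither difference passed the test.

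A further 7 snoRNA genes had overlapping arms. Gm25777, in an intron of Ranbp1, was counted 41, 53, 34 and 48 times in KO26F, KO23M, WT25F and WT22M (log2 fold change 0.16 ± 0.34 SE). Snora31, in an intron of Tpt1, was counted 23, 28, 18 and 29 times (0.08 ± 0.44 SE). Gm22478, on the strand opposite to Snrnp70, was counted 35, 19, 30 and 17 times (0.16 ± 0.45 SE). In Gm22478 the libraries with F in the title were higher than those with M in both arms. Snord72 in Rpl37, Gm25604, Gm24494 in Rabggtb and Snord88c had 7 to 23 counts in each library, with fitted log2 fold changes between -0.16 and 0.69 for the 3 of them that were tested.

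Both scaRNA genes were higher in both KO libraries than in both carriers. Gm22442, in an intron of the chromatin remodeller gene Chd3, was counted 16 and 40 times in KO26F and KO23M and 12 and 15 times in WT25F and WT22M. KO23M stood apart from the other libraries. The log2 fold change was 1.01 ± 0.51 SE (adjusted p = 1.0, edgeR) and 0.20 without KO23M, and that of Chd3 was -0.04 ± 0.10 SE. Gm25492, in an intron of Bud23, was counted 21, 23, 20 and 20 times and had the narrowest range of the members, with 1.11-fold between its highest and lowest CPM.

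The snRNA members were variant genes and not the main copies: in end-to-end alignments Gm25259 was 79.5% identical to Rnu2-10, Gm22208 74.6% and Gm23318 74.1% identical to Rnu6, and Gm23458 71.0% identical to Rnu1b1. Gm25259, a U2-related gene in an intron of Lrfn3, was counted 16 times in each KO library, 5 times in WT25F and 8 times in WT22M. Both KO libraries were above both carriers, with a log2 fold change of 1.24 ± 0.61 SE (adjusted p = 1.0, edgeR), against -0.06 ± 0.11 SE for Lrfn3. Gm22208, a U6-related gene outside annotated genes, was counted 17, 29, 13 and 9 times, again higher in both KO libraries (1.02 ± 0.52 SE, adjusted p = 1.0, edgeR). Gm23458 (24, 13, 15 and 27 counts) in Bcl7a and Gm23318 (16, 10, 14 and 14 counts) in Mtor had overlapping arms. The snRNA members did not move one way: 2 lay above 0 and 2 below.

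In the misc_RNA class, Rn7sk, the 7SK gene, was counted 11, 20, 11 and 24 times in KO26F, KO23M, WT25F and WT22M. The arms overlapped, with a log2 fold change of -0.22 ± 0.54 SE. Gm22204, 65.9% identical to Rn7sk, was counted 28 times in KO26F and 9, 6 and 9 times in the others, so KO26F alone was high; it did not pass the filter. Gm22388, in an intron of Mog on the opposite strand, was counted 12, 11, 24 and 12 times; WT25F alone was high, and scaled to depth both KO libraries lay just below WT22M. A list of 52 small RNA gene names of known role was also looked up. It left out members of known role such as the let-7 and miR-7 genes, and Rn7sk was the only member on it. Of the others, Terc, Rpph1, Rnu1a1, Scarna13, Scarna17 and Mir9-3 were in the files with 4 to 27 counts in all, and 45 were not in the joined tables.

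Between the carriers no member passed the test either. edgeR called 116 of 16252 genes (0.714%) for WT22M against WT25F and 0 of 35 members, and DESeq2 called 33 genes (0.203%) and 0 members. At an unadjusted p under 0.05 there were 2 members (5.71%), Gm23935 and Mirlet7c-2, against 793 genes (4.88%). For Gm23935 the difference between the carriers, 0.39 on the log2 scale, was close to that between KO and carriers, 0.44, given above; both use WT25F.

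The authors' deposited tables test 1 library against WT25F and mark some genes. In the authors' deposited table for KO26F, 4 of 37 members (10.8%) were marked, where 1.96% of all listed genes were. For KO23M it was 6 of 37 (16.2%) against 2.9%, and for WT22M 2 of 36 (5.56%) against 3.62%. Without Gm22490, 3 of 36 members (8.33%) were marked in the authors' deposited table for KO26F and 5 of 36 (13.9%) in that for KO23M. Gm22490 and Snord91a were marked in both KO tables. Snord91a and Mirlet7c-2 were marked in WT22M, and both were also marked in KO23M. All 3 tables share WT25F, so a low or high count there enters each of them.

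The members lay mostly inside other genes. By GENCODE vM21, 32 of 37 were inside another gene, 27 of them wholly in introns and 5 over an exon; for 26 the containing gene was on the same strand. The 31 containing genes that could be tested had log2 fold changes between -0.79 and 0.13, with a median of -0.03, and 0 of them were called. The members' own values spread more widely, from -1.63 to 4.23, mostly on far fewer counts. Gm23935 and Gm24270 had more counts than their containing genes in every library, and Gm22490, at 4.23, has no containing gene. For 22 members with a tested same-strand host both values are set side by side.

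**Figure D4:**
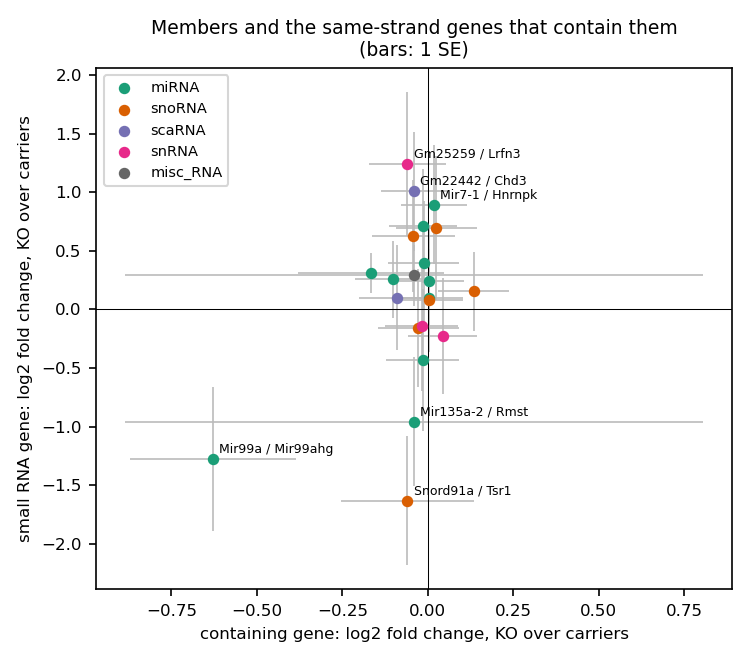
Log2 fold change of KO over carriers for 22 members (vertical axis) against that of the same-strand gene that contains each (horizontal axis); points are coloured by class and bars are 1 SE from edgeR. Most hosts lie near 0 while their members spread above and below it; Mir99a with Mir99ahg is the point lowest on the horizontal axis, and both values are negative.

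The proteins that make, carry or degrade these RNAs were looked up in 10 lists, with noncoding host genes among them. Of 183 listed entries 167 were tested: 88 lay above 0, 79 lay below and 0 were called by edgeR. Not all entries are distinct genes: Rian stood in 2 lists, and Zcchc11 and Skiv2l2 were each repeated within a list. The medians of the lists ran from -0.03 to 0.05. At an unadjusted p under 0.05 there were 3 (1.8%), a share under the 2.86% of all genes, so none of them is a result about the lists: Ints2, an Integrator subunit that acts in snRNA 3-prime processing (log2 fold change 0.34 ± 0.15 SE), Srp9 of the signal recognition particle (-0.61 ± 0.22 SE), and Mir99ahg, given above. Of the snoRNP and snoRNA assembly proteins 10 of 19 lay above 0, with Nop58, a core C/D box protein, at -0.12 ± 0.10 SE. Of the 20 tested entries for miRNA processing proteins, among which Zcchc11 is repeated, 15 lay above 0, with a median of 0.05. Of all genes, 50.7% lay above 0. Other lists leaned either way. Above 0 lay 13 of 18 nuclear exosome entries. Below 0 lay 14 of 19 for snRNA transcription and 3-prime processing and 11 of 16 for RNase P, RNase MRP, telomerase and Y RNA proteins. No list was tested as a set. Larp7, which binds 7SK, was at 0.12 ± 0.12 SE.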

How the data were processed

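RNA was measured in 4 libraries, prepared with the TruSeq RNA kit that the labels' protocols name. The tools Bowtie2 2.2.3, TopHat2 2.0.12, HTSeq 0.6.0 and the build mm9 are named in the submitters' processing notes; all 37 member positions are identical to GENCODE vM21 (GRCm38), so that build is used. Per the file headers, the authors deposited 3 tables that set 1 library beside WT25F, with a raw count per gene and a normalized value, the CPM. The authors deposited log2 fold changes, a linear fold ratio, and p-values and adjusted p-values from a test not given in the sources used here; printed ones are named as theirs.

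The tables were joined by gene identifier and a gene absent from a table was set to 0. Counts were tested with edgeR 4.0.16 (robust quasi-likelihood fit, TMM, filterByExpr, Benjamini-Hochberg threshold 0.05) over all genes; CPM was recomputed from the joined totals. Alternatives tried were DESeq2 1.42.0, limma 3.58.1 voom, RLE size factors, other filters, the title letter as a block and each library left out. Scripts were tested on simulated data. R 4.3.3 and Python 3.11.15 were used.

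The members, the gene lists and the marker lists were chosen with earlier results of these data known. Members were named by class size, small p, known role and closeness to the threshold, a rule that gave 26 names; the others were named to account for the members, of which 1, counted in the totals, is not reported here. Mature miRNA sequences are from RefSeq and other sequences from GENCODE transcripts. Alignments were global. Intervals are at the 95% level and cover counting error only.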

Additional observations from a re-analysis of the deposited data

How the results depend on the processing

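No member was called between KO and carriers with RLE size factors, DESeq2, limma voom, no filter or a filter that asks for 1 CPM in 2 libraries. The count of all genes called was 6 with limma voom and 48 to 100 when 1 library was left out, and the members called were then 1 to 1: Gm22490 without KO26F or without WT25F, and Gm23935 without KO23M or without WT22M. Without WT25F the log2 fold change of Gm23935 was 0.26. A lone library is there assumed to vary like the others. The median of the members ranged from -0.04 (without KO23M) to 0.28 (without WT22M), was also below 0 without WT25F, and was 0.09 without Gm22490, a step chosen after seeing the data that left 0 members called. With the replicate block on the letter of the titles, 123 genes and 2 members were called, Gm22490 (adjusted p = 0.00116) and Gm23935 (adjusted p = 4.7e-10). Gm22490 met the count threshold through the KO libraries, where it is high. Its calls with the block, and those with 1 library left out, are therefore descriptions of a member chosen through that arm. The libraries share only a letter: the labels name no shared litter or batch, and there are 2 pairs. Deviations from the arm means correlated at 0.25 over all genes tested and at 0.08 over the 35 tested members. Against WT25F, 0 members were called with no filter or with the spread of the 2-arm fit, where Gm23935 kept its log2 fold change of 0.65. Without the member with most counts, the KO-to-carrier ratio of the class total was 2.01 for scaRNA, 1.61 for snRNA, 1.11 for miRNA and 1.03 for misc_RNA and snoRNA, the last from below 1. Mirlet7c-2 reversed to 0.45 with limma voom. Fitted differences near 0 reversed when 1 library was left out, with log2 fold changes from -0.336 to 0.597 for Gm22478, -0.515 to 0.145 for Gm23318, -0.726 to 0.283 for Gm23458, -0.095 to 0.450 for Gm25777, -0.532 to 0.120 for Gm44349, -0.0783 to 0.294 for Mir5125, -1.05 to 2.16 for Mirlet7c-2, -0.715 to 0.475 for Rn7sk and -0.250 to 0.484 for Snora31; the cause was not tested. Of the other values of single members, 210 kept their direction and their side of the threshold. Most members had under 100 counts, which limits what these libraries can resolve.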
